A study of Mus musculus with 6 samples.

Results

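The genes that write, erase and read histone acetylation were followed through the open chromatin of mouse lung endothelial cells. They were taken by name: the Kat, Hdac, Sirt, Brd and Ncoa families, nuclear receptor corepressors, Ep300, Crebbp, Bcor, Sin3a and Sin3b. A region belonged to the gene whose symbol the deposited table gives it, or, where the table names no gene, to the nearest protein-coding start site in that table within 100 kb. This gave 160 regions of 43 genes, out of 58172 regions of the table and 12574 genes that hold a region. Of the 160, 41 are promoter regions, with a centre no more than 1000 bp from the start site by the deposited distance, and 119 are distal. The name pattern also takes Brd3os, a gene beside Brd3 that is no known part of acetylation, with 1 region. No region fell to Brdt, Hdac3, Hdac9, Kat14, Kat6b or Sirt3. Such regions were assigned by nearness alone, with no evidence that they act on the gene.

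Accessibility was measured by ATAC-seq, which cuts and tags open DNA with the Tn5 transposase. The 3 CSE-KO libraries are labelled Cre-positive, and the 3 WT libraries Cre-negative. CSE is cystathionine gamma-lyase, the product of Cth, which makes cysteine from cystathionine. All CSE-KO libraries and no WT library carry Cre, so a change due to Cre and a change due to the missing enzyme cannot be told apart; the driver of Cre, the deleted part of Cth, and the strain, sex and age of the mice are not given in the labels used here. The study's title ties cystine use to histone acetylation, and the comparison of CSE-KO with WT asks here where the chromatin of the acetylation genes themselves differed.

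Acetyltransferases place acetyl groups from acetyl-CoA on lysines of the histone tails, deacetylases and sirtuins remove them, and bromodomain proteins bind the acetylated lysines. Ep300 and Crebbp act at enhancers and promoters, brought there by transcription factors and by the Ncoa coactivators, while Ncor1, Sin3a, Sin3b and Bcor are scaffolds that bring deacetylases or other repressors to DNA. In endothelial cells Hdac7, a class IIa deacetylase that binds Mef2 factors, is known to be needed for intact embryonic vessels in the mouse.

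Start-site sequences are shown for the genes on which the distal and promoter results turn and for which RefSeq has a window at a matching start (GRCm38.p6, the assembly called mm10, 250 bases before the start and 50 after it, 5′ to 3′ on the gene's strand). The Brd7 window lies on the minus strand at chr8:88362123-88362422, next to a promoter region that rose in CSE-KO. The windows of Hdac5, chr11:102230123-102230422, and Kat7, chr11:95310197-95310496, both on the minus strand, belong to genes whose distal and promoter regions changed differently. The last is a start inside Ncoa4, chr14:32165539-32165838 on the plus strand, which lies within a region that rose. Capitals mark matches to the motifs GGGCGG (SP/KLF), CCGGAAG (ETS), CACGTG (E-box) and TGACNNNGC (core of the antioxidant response element), searched on both strands.
Brd7: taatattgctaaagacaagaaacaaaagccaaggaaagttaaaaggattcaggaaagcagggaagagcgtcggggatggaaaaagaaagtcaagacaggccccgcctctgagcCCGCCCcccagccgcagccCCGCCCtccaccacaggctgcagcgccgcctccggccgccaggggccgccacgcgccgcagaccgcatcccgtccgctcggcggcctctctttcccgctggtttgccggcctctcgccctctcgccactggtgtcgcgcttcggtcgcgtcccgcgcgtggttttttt
Hdac5: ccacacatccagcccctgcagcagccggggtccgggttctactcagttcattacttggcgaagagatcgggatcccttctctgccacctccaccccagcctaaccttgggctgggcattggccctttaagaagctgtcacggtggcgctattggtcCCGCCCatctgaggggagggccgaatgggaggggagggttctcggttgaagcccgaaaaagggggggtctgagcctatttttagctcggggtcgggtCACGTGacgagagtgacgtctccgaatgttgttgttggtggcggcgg
Kat7: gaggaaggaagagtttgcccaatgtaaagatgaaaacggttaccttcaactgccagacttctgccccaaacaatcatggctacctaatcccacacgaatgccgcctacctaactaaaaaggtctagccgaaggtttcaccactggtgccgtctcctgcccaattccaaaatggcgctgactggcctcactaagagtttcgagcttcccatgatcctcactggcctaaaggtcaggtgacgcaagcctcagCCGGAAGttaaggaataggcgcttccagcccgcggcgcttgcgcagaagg
Ncoa4, internal start: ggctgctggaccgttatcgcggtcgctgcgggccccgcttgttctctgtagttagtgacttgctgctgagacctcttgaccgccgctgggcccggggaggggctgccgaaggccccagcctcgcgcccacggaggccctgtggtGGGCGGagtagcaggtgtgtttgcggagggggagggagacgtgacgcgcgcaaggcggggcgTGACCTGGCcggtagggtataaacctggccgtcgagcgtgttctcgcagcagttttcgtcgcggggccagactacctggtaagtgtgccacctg
None of these matches overlaps another. The Brd7 window holds 2 SP/KLF matches, both written CCGCCC on the strand shown, and the Hdac5 window holds 1 of them and an E-box that begins at base 4 after the start site. In Kat7 an ETS match begins at the start site itself. The internal Ncoa4 start has an SP/KLF match and an antioxidant response element core, TGACCTGGC. A window within 1000 bp of the deposited start exists for 30 of the 43 genes. GGGCGG was found in 63.3% of those 30 windows, against 35.7% of 32851 RefSeq windows, and CCGGAAG in 23.3%, against 8.86%. The NRF1 motif GCGCATGC stood in 10% of the member windows and 2.71% of all, the antioxidant core in 13.3% and 12.4%, CACGTG in 6.67% and 7.15%, and the AP-1 motif TGANTCA in 3.33% and 7.81%. Neither the CRE motif TGACGTCA (1.79% of all windows) nor the heat-shock motif GAANNTTC (7.86%) occurs in these 30 windows. The member windows are richer in G and C, with a median of 60.8% against 52.7% over all windows, and the shares were not matched for this. A match is a string of letters in a window and says nothing of binding.

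The targeted gene was read first. The promoter region of Cth, chr3:157924836-157925422, had accessibility values of 11, 6 and 2 in CSE-KO, against 195, 157 and 167 in WT (log2 change -4.78 ± 0.46 SE, limma adjusted p = 0.00307). Deposited values summed to between 5437296 and 5547417 in CSE-KO and between 5242490 and 5368491 in WT, but they are scaled. From the spacing of low values, about 3330000 to 3620000 reads lay within the regions in a CSE-KO library, against about 6780000 and 9240000 in WT replicates 1 and 2. Reads outside the regions are not counted in these estimates. The step of WT replicate 3 could not be resolved. Spread between libraries was larger in CSE-KO, with a residual SD of 0.481 on the log2 scale against 0.306 in WT. Of 15 endothelial markers 12 had a promoter region, with summed values of 1583 to 1713 in CSE-KO and 1425 to 1527 in WT. The sum joins both directions. Of 13 such regions, 3 passed a limma adjusted p of 0.05 as higher in CSE-KO (Kdr, Tek and Fli1) and 2 as lower (Tie1 and Egfl7). Over all promoter regions 5.23% were higher and 3.29% lower. The defining marker Pecam1 had no promoter region, nor had Robo4 or Sox17. Promoter sums over 2 of 12 leukocyte markers, Spi1 and Cd68, were 175 to 186 in CSE-KO and 247 to 284 in WT. Those over 4 of 10 mural and fibroblast markers were 340 to 348 and 206 to 248. Those over 3 of 12 lung epithelial markers were 149 to 212 and 165 to 195. In each of these 3 sums 1 gene passed: Spi1 (mean 99.0 in CSE-KO, 169 in WT), Col1a1 (134 and 62.3) and Epcam (48.3 and 25.3). The promoters of Ptprc, Cd3e, Sftpc, Nkx2-1, Rgs5 and Pdgfra hold no region in the table. The part that these marker differences play in the results was not tested, and in bulk cells a region open in fewer cells and a region less open in each cell cannot be told apart.

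Across the acetylation genes, accessibility fell at some distal regions of the corepressor scaffolds and class IIa deacetylases, and at single regions of Kat2b, Ncoa2, Ncoa6 and Ncoa7. It rose at a few regions of the acetyltransferases Kat6a and Kat7, of bromodomain readers, and of Ncoa2, Ncoa4 and Sirt2. In limma's test of log2(value + 1), adjusted over 58129 regions, 31 of the 160 regions passed 0.05, which is 19.4%, against 17.3% of all regions tested. Of these, 9 were higher in CSE-KO (7.7% of all regions) and 22 lower (9.6% of all regions). All 31 had groups that did not overlap; over the 160, every CSE-KO value lay above every WT value in 27 regions and below in 42, where all regions gave 19% and 20.5%. The median log2 change was -0.13 over the members and -0.00 over all regions. Of the 160 changes 62 were positive, where 49.7% of all regions had a positive change. Over all regions 16.3% were higher and 17.9% lower at an unadjusted p under 0.05, and 12.4% and 14.2% were called so with limma's trend and robust options, where the members gave 21 and 35, and 19 and 33.

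At promoters 2 of 41 regions were higher and 0 lower, where the background over 13246 promoter regions was 8.52% called, 5.23% higher and 3.29% lower; at an unadjusted p under 0.05 limma gave 9 higher and 0 lower members, where 16.1% of all promoter regions were higher and 7.82% lower, and with its trend and robust options on 11 and 0, where 15.7% and 7.71% were. At distal regions 7 of 119 were higher and 22 lower, a share of 24.4%, where 44883 distal regions gave 19.9% called, 8.43% higher and 11.5% lower, 16.4% and 20.9% at an unadjusted p under 0.05, and 11.4% and 16.1% with trend and robust on. Median log2 changes were 0.15 at member promoters and -0.30 at member distal regions, against 0.11 and -0.06 over all promoter and all distal regions. The 22 lower calls came from 10 genes, with 6 at Bcor and 4 at Hdac4. Calls in all numbered 11, 14 and 10 without WT replicate 1, 2 and 3, 52 with limma's trend and robust options, and 15 with the replicate number as a block. Where the table's own symbols alone were used, 56 regions remained as members, 41 promoter and 15 distal, and 3 were called (5.36%). Of the 104 distal regions given to the nearest start, 28 were called (26.9%). These sets also differ in their share of promoters and in distance from the start.

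**Figure D1:**
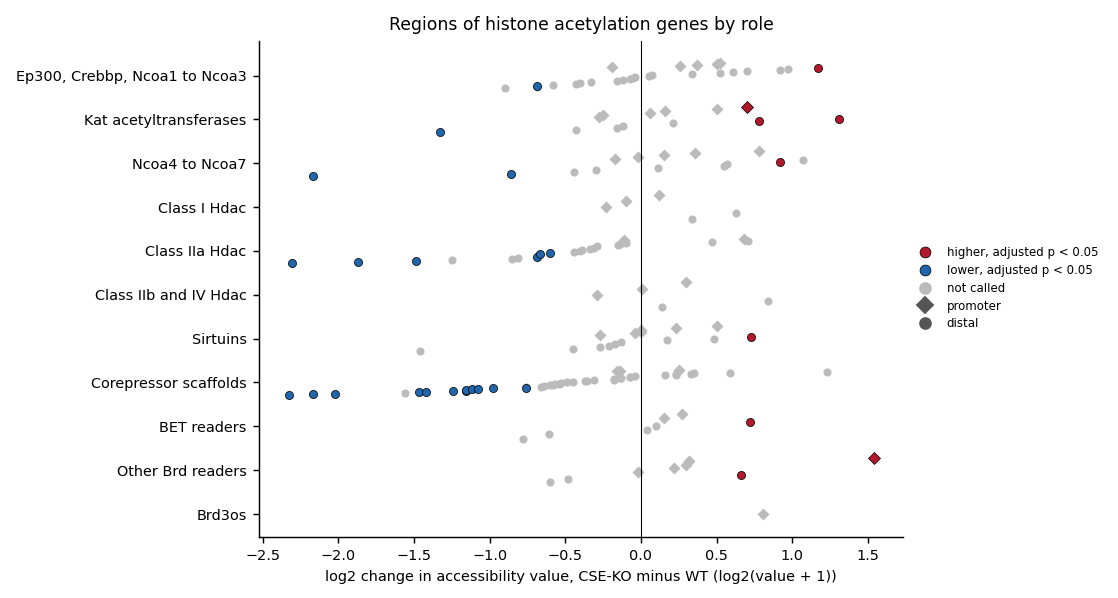
Each point is a region of an acetylation gene, placed by its log2 change in accessibility value, CSE-KO minus WT, on the x axis and by the role of its gene on the y axis; diamonds are promoters, circles distal regions, colour marks an adjusted p under 0.05, and small vertical offsets only separate points. The corepressor row holds 12 lower calls and 0 higher, and the class IIa row 6 lower and 0 higher.

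Among the enhancer coactivators Ep300, Crebbp and Ncoa1 to Ncoa3, 26 regions gave 1 higher and 1 lower call. All regions gave 7.7% and 9.6%. Both calls were at Ncoa2, a steroid receptor coactivator. The higher region lies 80.6 kb from the start, outside any RefSeq gene (chr1:13454333-13454950), with values of 188, 192 and 148 in CSE-KO against 73, 82 and 76 in WT (log2 change 1.17 ± 0.18 SE, adjusted p = 0.0081). The lower region, within the gene 7.28 kb from the start (chr1:13366325-13367292), had 158, 129 and 143 in CSE-KO against 244, 221 and 228 in WT (log2 change -0.69 ± 0.16 SE, adjusted p = 0.0302). Ncoa2 thus had regions that moved in opposite directions, with no overlap of the groups in either. The call of the lower region was lost without CSE-KO replicate 2 or 3 or each WT library in turn (adjusted p 0.0559 to 0.108), while that of the higher region held without each library in turn.

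No promoter of these coactivators was called. The promoter of Ep300, an acetyltransferase of enhancers, had 343, 408 and 381 in CSE-KO against 280, 235 and 275 in WT (log2 change 0.52 ± 0.17 SE, adjusted p = 0.0741). That of its close relative Crebbp had 268, 325 and 256 in CSE-KO against 220, 205 and 226 in WT (0.37 ± 0.17 SE, adjusted p = 0.166). The Ncoa1 promoter had 201, 265 and 200 in CSE-KO against 135, 148 and 188 in WT (0.50 ± 0.21 SE, adjusted p = 0.137). Groups did not overlap in any of the 3. With limma's trend and robust options the promoters of Ep300 and Crebbp passed 0.05 (adjusted p = 0.00314 for Ep300 and 0.0397 for Crebbp). The adjusted p of Ncoa1 under these options is not given here. Over its 26 regions the class gave 5 higher and 1 lower call with them, where 12.4% and 14.2% of all regions were called so. The promoter of Ncoa2, the strongest of the class, had 546, 686 and 558 in CSE-KO against 719, 648 and 660 in WT, and its groups overlapped. Ncoa3, another steroid receptor coactivator, had 10 distal regions with 0 calls by limma, 0 also at an unadjusted p under 0.05 and with trend and robust on, and summed distal values of 606, 618 and 551 in CSE-KO against 612, 581 and 562 in WT. Of all distal regions 19.9% were called.

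The Kat acetyltransferases had 13 regions, 3 higher and 1 lower, where 7.7% of all regions were higher and 9.6% lower. Limma gave 4 higher and 1 lower at an unadjusted p under 0.05, and also with trend and robust on. All regions gave 16.3% and 17.9%, and 12.4% and 14.2%, in the same order. Kat6a, the catalytic subunit of a histone H3 acetyltransferase complex, rose at its promoter and within the gene. Its promoter region, chr8:22859166-22860669, had 299, 388 and 351 in CSE-KO against 179, 218 and 242 in WT (log2 change 0.70 ± 0.19 SE, adjusted p = 0.0474). The region 23.2 kb into the gene, chr8:22882478-22883069, had 129, 155 and 138 in CSE-KO against 92, 92 and 64 in WT (0.78 ± 0.20 SE, adjusted p = 0.0411). In both the lowest CSE-KO library stood above the highest WT library. The remaining 2 regions of Kat6a were not called.

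Kat7, which acetylates histone H3 and H4 with Brpf and Jade partners, rose at a region 16.7 kb into the gene (chr11:95293418-95293730). It had 47, 72 and 44 in CSE-KO against 15, 20 and 30 in WT (log2 change 1.31 ± 0.30 SE, adjusted p = 0.0285), while the Kat7 promoter, shown above by sequence, had 274, 329 and 272 against 336, 400 and 326 (-0.28 ± 0.17 SE, adjusted p = 0.304). Of the distal regions inside Kat2b, an acetyltransferase of the SAGA type of complex, the nearer one fell. It lies 6.45 kb from the start (chr17:53573139-53573482) and had 33, 31 and 28 in CSE-KO against 82, 73 and 80 in WT, 2.51-fold lower on the log2(value + 1) scale (log2 change -1.33 ± 0.16 SE, adjusted p = 0.00475). The other, at 20.6 kb, had 178, 193 and 136 in CSE-KO against 176, 173 and 199 in WT (-0.12 ± 0.19 SE, adjusted p = 0.686). The Kat2b promoter had 286, 378 and 422 in CSE-KO against 300, 318 and 344 in WT, with overlapping groups. Kat2b kept its call without each library in turn; Kat7 lost it without CSE-KO replicate 2 or WT replicate 1 or 2 (adjusted p 0.0614 to 0.093), the Kat6a promoter without CSE-KO replicate 2 or 3 or each WT library in turn (0.088 to 0.152), and the region inside Kat6a whichever of the 6 libraries was left out (0.0582 to 0.124); with array quality weights both Kat6a calls were lost (0.0578 and 0.0563). Kat2a, Kat5 and Kat8 had a promoter region each and no distal region, and none of the 3 was called.

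Ncoa4 to Ncoa7 share the coactivator name but no acetyltransferase domain. Their 14 regions gave 1 higher and 2 lower calls, where 7.7% of all regions were higher and 9.6% lower. Limma gave 3 higher and 2 lower at an unadjusted p under 0.05, and 4 and 2 with trend and robust on. All regions gave 16.3% and 17.9%, and 12.4% and 14.2%, in the same order. Ncoa6, a subunit of histone H3 methyltransferase complexes, had the smallest adjusted p of all members. Its only distal region, chr2:155443514-155444175, lies within the gene 30.1 kb from the deposited start and 3061 bp from a start that RefSeq gives inside the gene. It had 39, 26 and 39 in CSE-KO against 158, 147 and 168 in WT, 4.52-fold lower (log2 change -2.17 ± 0.21 SE, adjusted p = 0.00299). The highest CSE-KO value, 39, stood far below the lowest WT value, 147. At the Ncoa6 promoter the values were 114, 136 and 159 in CSE-KO against 82, 60 and 98 in WT (0.78 ± 0.23 SE, adjusted p = 0.0621), so that region did not pass.

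Ncoa7, which binds the vacuolar proton pump, fell at a region 73.4 kb into the gene (chr10:30729574-30730263), with 88, 98 and 95 in CSE-KO against 190, 153 and 172 in WT (log2 change -0.86 ± 0.16 SE, adjusted p = 0.016). Ncoa4, the receptor that carries ferritin to the lysosome, rose at the internal start whose sequence is shown above. That region, chr14:32165410-32165905, had 87, 75 and 87 in CSE-KO against 54, 34 and 44 in WT (0.92 ± 0.21 SE, adjusted p = 0.0274). It counts as distal because it lies 5.79 kb from the deposited start. The first promoter of Ncoa4 had 260, 239 and 277 in CSE-KO against 189, 191 and 224 in WT (0.36 ± 0.16 SE, adjusted p = 0.169). Its groups did not overlap, and it passed 0.05 narrowly with limma's trend and robust options (adjusted p = 0.0499). Promoter values of Ncoa7 were 247, 265 and 259 in CSE-KO against 260, 257 and 263 in WT, and those of Ncoa5, a nuclear receptor coregulator, 139, 130 and 187 against 147, 135 and 125; both pairs overlapped. The Ncoa6 call held without each library, that of Ncoa7 ended when WT replicate 1 or 3 was left out (0.066 and 0.0679), and that of Ncoa4 without CSE-KO replicate 1 or 3 or WT replicate 2 or 3 (0.0574 to 0.089).

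The class I deacetylases Hdac1, Hdac2 and Hdac8 showed no call in 5 regions by limma, with 0 at an unadjusted p under 0.05 and 0 with trend and robust on. Over all regions 17.3% were called, and over all promoter regions 8.52%, so few calls are expected in 5 regions, 3 of them promoters. All regions gave 16.3% higher and 17.9% lower at an unadjusted p under 0.05, and 12.4% and 14.2% with trend and robust on. Hdac2, which pairs with Hdac1 in the Sin3, NuRD and CoREST complexes, had promoter values of 302, 322 and 322 in CSE-KO against 327, 334 and 354 in WT (log2 change -0.10 ± 0.15 SE, adjusted p = 0.675). Hdac1 had 105, 107 and 121 in CSE-KO against 136, 124 and 130 in WT (-0.23 ± 0.16 SE, adjusted p = 0.345). Every CSE-KO value lay under every WT value in both, by a small margin. This order of the groups was found in 12.1% of all promoter regions. Hdac8, a deacetylase of cohesin, had 52, 61 and 59 in CSE-KO against 48, 55 and 55 in WT.

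The class IIa deacetylases carried 6 lower and 0 higher calls in 23 regions, all 6 at distal regions of Hdac4 and Hdac7. Of their distal regions 28.6% were called lower, where 11.5% of all distal regions were. These enzymes shuttle between nucleus and cytoplasm and repress Mef2 targets. Over their 21 distal regions the median log2 change was -0.44, and 2 of the 21 changes were positive, where 46.3% of all distal regions were. In 12 of the 21 every CSE-KO value lay below every WT value, and in 1 above, against 23% and 17.5% of all distal regions. Over all 23 regions, limma gave 2 higher and 11 lower at an unadjusted p under 0.05, and 2 higher and 11 lower calls with trend and robust on. All regions tested gave 16.3% and 17.9%, and 12.4% and 14.2%, in the same order.

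Hdac7 had no promoter region and 11 distal ones, with 0 positive changes. Its distal values summed to 667, 791 and 798 in CSE-KO against 1247, 1136 and 1175 in WT. The region 15.5 kb into the gene (chr15:97828714-97829268) had 67, 72 and 89 in CSE-KO against 240, 215 and 191 in WT, 2.82-fold lower (log2 change -1.49 ± 0.19 SE, adjusted p = 0.00524). A second, 22.8 kb in (chr15:97821308-97822088), had 163, 159 and 190 in CSE-KO against 283, 250 and 296 in WT (-0.69 ± 0.17 SE, adjusted p = 0.0325). The CSE-KO libraries were low in both. The region 12.9 kb in, which lies at a RefSeq start of Hdac7, had 160, 169 and 166 in CSE-KO against 245, 205 and 222 in WT and was not called (-0.44 ± 0.16 SE, adjusted p = 0.0995).

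Hdac4 had 4 lower calls among 7 distal regions, and distal sums of 991, 1085 and 1035 in CSE-KO against 1510, 1438 and 1428 in WT. Within the gene, 58.5 kb from the start (chr1:92136920-92137536), values were 39, 61 and 26 in CSE-KO against 158, 145 and 141 in WT (log2 change -1.87 ± 0.30 SE, adjusted p = 0.00962). The other 3 lie upstream, in no RefSeq gene. At 20.8 kb (chr1:92216290-92216753) Hdac4 had 7, 26 and 16 in CSE-KO against 95, 66 and 69 in WT, 4.97-fold lower (-2.31 ± 0.43 SE, adjusted p = 0.0144). At 19.8 kb (chr1:92215124-92215814) the values were 126, 129 and 126 in CSE-KO against 216, 201 and 192 in WT (-0.67 ± 0.15 SE, adjusted p = 0.0264), and at 75.1 kb (chr1:92270341-92271234) 204, 167 and 192 against 293, 277 and 282 (-0.60 ± 0.16 SE, adjusted p = 0.0438). Groups were apart in all 4 regions. The strongest region of Hdac4, 15.3 kb in at its RefSeq start, had 421, 483 and 482 in CSE-KO against 595, 604 and 610 in WT (-0.39 ± 0.15 SE, adjusted p = 0.127). In the opposite direction, the region at 86.1 kb had 178, 190 and 182 in CSE-KO against 147, 136 and 115 in WT, apart but not called (0.47 ± 0.17 SE, adjusted p = 0.0948). The Hdac4 promoter by the deposited start was weak, with 15, 23 and 16 in CSE-KO against 26, 15 and 18 in WT.

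Hdac5, which binds Mef2 as well, had promoter values (chr11:102229904-102230532) of 178, 182 and 144 in CSE-KO against 101, 124 and 90 in WT (log2 change 0.68 ± 0.19 SE, adjusted p = 0.0535). The groups did not overlap, and the value missed 0.05; it passed with log2(value + 5) (adjusted p = 0.0409), with a mean of at least 20 (0.0333) and with trend and robust on (0.00529). The calls at Hdac7 15.5 kb and Hdac4 58.5 kb held without each library. Hdac4 lost its call at 75.1 kb whichever of the 6 libraries was left out (adjusted p 0.0504 to 0.136), at 19.8 kb without each WT library in turn (0.0802 to 0.0995) and at 20.8 kb without WT replicate 1 or 3 (0.0529 and 0.0607), and Hdac7 at 22.8 kb without CSE-KO replicate 1 or 2 or each WT library in turn (0.0625 to 0.117).

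Hdac6, Hdac10 and Hdac11, of classes IIb and IV, had 5 regions and 0 calls by limma, 1 higher and 0 lower at an unadjusted p under 0.05, and 0 calls with trend and robust on. Over all regions 17.3% were called, and over all promoter regions 8.52%, so few calls are expected in 5 regions. All regions gave 16.3% higher and 17.9% lower at an unadjusted p under 0.05, and 12.4% and 14.2% with trend and robust on. The tubulin deacetylase Hdac6 had promoter values of 90, 70 and 118 in CSE-KO against 92, 81 and 97 in WT. Hdac10, a deacetylase of polyamines, had 253, 230 and 195 in CSE-KO against 202, 151 and 198 in WT, and Hdac11 72, 69 and 98 against 97, 88 and 105. The groups overlapped in all 3 promoters.

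The sirtuins, deacylases that use NAD, had 15 regions and 1 call, where 17.3% of all regions were called. Limma gave 2 higher and 1 lower at an unadjusted p under 0.05, where all regions gave 16.3% and 17.9%. With trend and robust on it gave 1 higher and 0 lower, where all regions gave 12.4% and 14.2%. That higher call was at a region other than the one called below. Sirt2, mainly a cytoplasmic deacetylase, rose 13.6 kb into the gene (chr7:28780153-28780504), with 47, 47 and 44 in CSE-KO against 32, 30 and 21 in WT (log2 change 0.73 ± 0.20 SE, adjusted p = 0.0467); the call was lost whichever of the 6 libraries was left out (adjusted p 0.0751 to 0.134), and also with trend and robust on (0.0528) and with array quality weights (0.0667). The centre of the Sirt2 promoter region lies inside the neighbouring gene Nfkbib, outside the RefSeq span of Sirt2. This region had the highest value per kb among the member promoters, at the percentile 95 of all promoters. It had 230, 207 and 269 in CSE-KO against 231, 235 and 237 in WT. The chromatin-bound Sirt6 had promoter values of 173, 188 and 195 in CSE-KO against 178, 181 and 197 in WT, and the nucleolar Sirt7 had 176, 173 and 194 against 141, 170 and 153. Sirt6 groups overlapped and those of Sirt7 did not, but neither promoter passed (adjusted p = 0.999 and 0.361). The NAD-dependent deacetylase Sirt1 had 4 regions and 0 calls by limma, with 0 at an unadjusted p under 0.05 and 0 with trend and robust on. Sirt1 was weak at the deposited start (25, 12 and 11 in CSE-KO against 13, 27 and 17 in WT) and strong 42.8 kb away at its RefSeq start, with 299, 283 and 307 in CSE-KO against 260, 268 and 263 in WT (0.17 ± 0.15 SE, adjusted p = 0.467).

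The corepressor scaffolds had 12 lower and 0 higher calls among their 43 regions, the most regions of any class, a share of 27.9%; the share was 30.8% in the 13 regions of the Kat acetyltransferases, with 3 higher and 1 lower. Over their 40 distal regions the median log2 change was -0.54, with 7 positive changes, where 46.3% of all distal regions had one, and 30% were called lower, where 11.5% of all distal regions were. Every CSE-KO value lay below every WT value in 18 and above in 1, against 23% and 17.5% of all distal regions. Over the 43 regions limma gave 1 higher and 16 lower at an unadjusted p under 0.05, and 0 higher and 17 lower calls with trend and robust on. All regions tested gave 16.3% and 17.9%, and 12.4% and 14.2%, in the same order.

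Bcor, which joins Bcl6 and a Polycomb complex, had 6 lower calls among 17 distal regions and no promoter region. Its distal values summed to 603, 702 and 648 in CSE-KO against 971, 1023 and 1055 in WT. The sharpest fall was 29.7 kb into the gene (chrX:12130496-12130728), with 13, 6 and 8 in CSE-KO against 50, 49 and 43 in WT, 5.03-fold lower (log2 change -2.33 ± 0.27 SE, adjusted p = 0.00435). Close by, at 30.8 kb (chrX:12129331-12129681), Bcor had 52, 58 and 59 in CSE-KO against 91, 97 and 100 in WT (-0.76 ± 0.16 SE, adjusted p = 0.0197). Both neighbours were low in all 3 CSE-KO libraries. At 71.7 kb (chrX:12088268-12089018) the values were 69, 72 and 56 in CSE-KO against 126, 164 and 155 in WT (-1.16 ± 0.19 SE, adjusted p = 0.01).

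The other 3 calls of Bcor were at weaker regions. Upstream of the gene, 4.92 kb from the start (chrX:12165099-12165451), there were 5, 12 and 5 in CSE-KO against 29, 43 and 31 in WT (log2 change -2.17 ± 0.34 SE, adjusted p = 0.00912). At 23.5 kb (chrX:12136752-12136985) there were 7, 12 and 7 in CSE-KO against 21, 25 and 30 in WT (-1.47 ± 0.25 SE, adjusted p = 0.0115), and at 79.3 kb (chrX:12080828-12081209) 10, 25 and 25 against 58, 51 and 45 (-1.42 ± 0.35 SE, adjusted p = 0.035). Again no CSE-KO library reached a WT library. The gene is X-linked, and the sex of the animals is not stated. Bcor calls at 29.7, 4.92 and 71.7 kb held without each library; that at 23.5 kb was lost without WT replicate 3 (adjusted p = 0.0518), and those at 30.8 and 79.3 kb without each WT library in turn (0.0646 to 0.0806 and 0.0877 to 0.115).

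Single calls came from Sin3b and Ncor1. Sin3b, a scaffold of Hdac1 and Hdac2, fell 5.34 kb into the gene (chr8:72728394-72728866), with 25, 29 and 52 in CSE-KO against 85, 86 and 72 in WT (log2 change -1.24 ± 0.28 SE, adjusted p = 0.0274). Its promoter had 127, 112 and 102 in CSE-KO against 109, 140 and 134 in WT. The region given to Ncor1, which carries Hdac3 to nuclear receptors, 8.38 kb from its start (chr11:62466794-62467045), lies inside the neighbouring gene Pigl and had 3, 3 and 8 in CSE-KO against 13, 32 and 20 in WT (-2.02 ± 0.42 SE, adjusted p = 0.0208). All 4 regions given to Ncor1 lie in Pigl, its promoter included, which had 119, 98 and 79 in CSE-KO against 95, 82 and 70 in WT. Sin3a, the relative of Sin3b, had 3 strong distal regions, no promoter region and 0 calls by limma (1 lower at an unadjusted p under 0.05, and 1 lower call with trend and robust on), with sums of 1064, 1079 and 969 in CSE-KO against 1155, 1135 and 1096 in WT. Sin3b lost its call without CSE-KO replicate 1 or 2 or each WT library in turn (adjusted p 0.0557 to 0.0936), and Ncor1 without CSE-KO replicate 1 or 2 or WT replicate 2 or 3 (0.0508 to 0.0709).

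**Figure D2:**
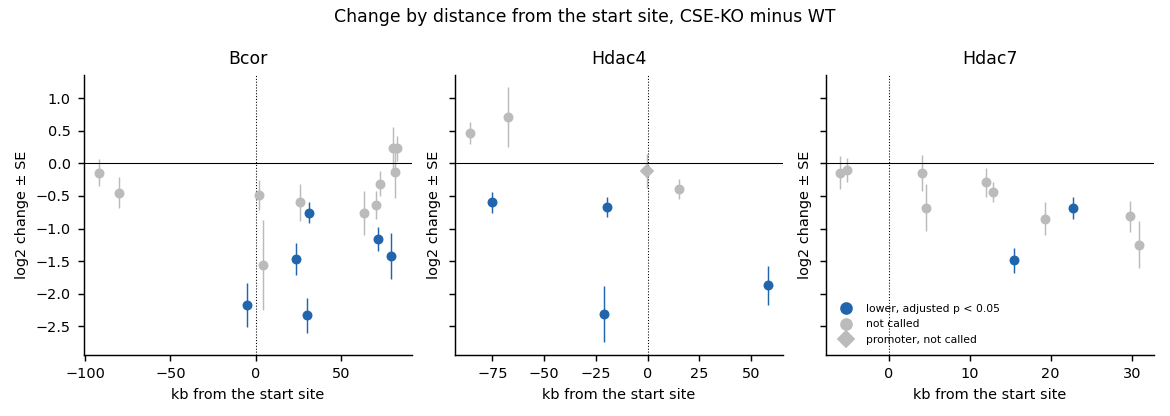
Log2 change of accessibility, CSE-KO minus WT, with its SE (n = 3 libraries a group) on the y axis, against the distance in kb from the deposited start site, in the gene's direction, on the x axis, for Bcor, Hdac4 and Hdac7. Blue points passed an adjusted p of 0.05 and lie below 0: 6 at Bcor, 4 at Hdac4, of which 3 lie upstream in no RefSeq gene, and 2 at Hdac7. The promoter point of Hdac4 (-0.11) lies near 0.

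By limma the bromodomain readers gave 3 higher calls in 15 regions and no lower call, where 7.7% of all regions were higher and 9.6% lower. The BET genes and the other Brd genes each had 1 lower region at an unadjusted p under 0.05. With trend and robust on, the BET genes had 1 higher call, and the other Brd genes 1 higher and 1 lower. Brd7, a bromodomain subunit of a SWI/SNF remodeller, rose at a region 0.864 kb from its start (chr8:88361158-88361501), which lies beside the printed window and does not overlap it. It had 41, 93 and 48 in CSE-KO against 24, 14 and 20 in WT, 2.91-fold higher (log2 change 1.54 ± 0.34 SE, adjusted p = 0.0257). CSE-KO replicate 2 stood far above the other CSE-KO libraries. The larger Brd7 region over the start (chr8:88361643-88362689) had 214, 213 and 207 in CSE-KO against 172, 161 and 183 in WT (0.30 ± 0.15 SE, adjusted p = 0.214).

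Brd9, a subunit of another SWI/SNF complex, rose 40.1 kb away in no RefSeq gene (chr13:73897610-73897865), with 49, 43 and 48 in CSE-KO against 25, 33 and 30 in WT (log2 change 0.66 ± 0.17 SE, adjusted p = 0.0424). The groups were apart. The promoter of the BET protein Brd2 had 90, 129 and 112 in CSE-KO against 91, 95 and 109 in WT, with overlapping groups. Brd8, a subunit of the Kat5 complex, had promoter values of 271, 259 and 271 in CSE-KO against 193, 249 and 205 in WT (0.32 ± 0.17 SE, adjusted p = 0.233), and Brd1, a subunit of Kat6a and Kat7 complexes, had 193, 176 and 172 against 189, 164 and 195. Leaving out any of the 6 libraries ended the call of Brd9 (adjusted p 0.0575 to 0.141), as did trend and robust (0.0711) and array quality weights (0.0568), and leaving out any WT library ended that of Brd7 (0.0598 to 0.0896).

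**Figure D3:**
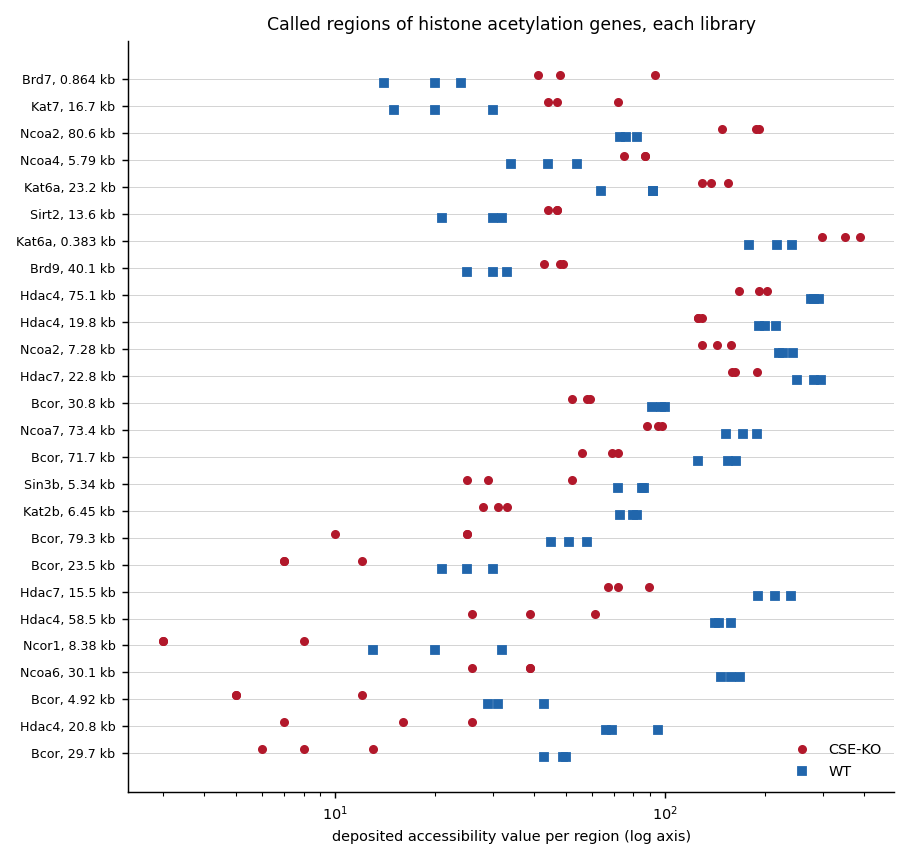
Deposited accessibility value, on a log axis, of 26 of the called regions in each library, ordered by log2 change, with CSE-KO as red circles and WT as blue squares; each label gives the gene and the distance from its start site. In all 26 rows the colours are apart: CSE-KO lies to the right in 8 and to the left in 18.

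Most member promoters did not pass the test. Of the 41 promoter regions, 25 had a positive change, where 61.4% of all promoter regions had one. In 14 every CSE-KO value was above every WT value and in 2 below, where all promoter regions gave 23.9% and 12.1%. Per kb of region the mean accessibility value over the 6 libraries ran from 61.5, at the smaller of the Ncoa6 regions, to 370 at the Sirt2 region inside Nfkbib. It was 295 at Hdac2, 293 at Kat7 and 286 at Ncoa2. Hdac4 (64.7) and Sirt1 (86.2) were near the low end. For those genes and for Brd3, Ncoa6 and Ncor1 the deposited start lies over 1000 bp from the RefSeq window's start, by 15358 bp in Hdac4 and 42669 bp in Sirt1, so their promoter values follow the table's choice of start.

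**Figure D4:**
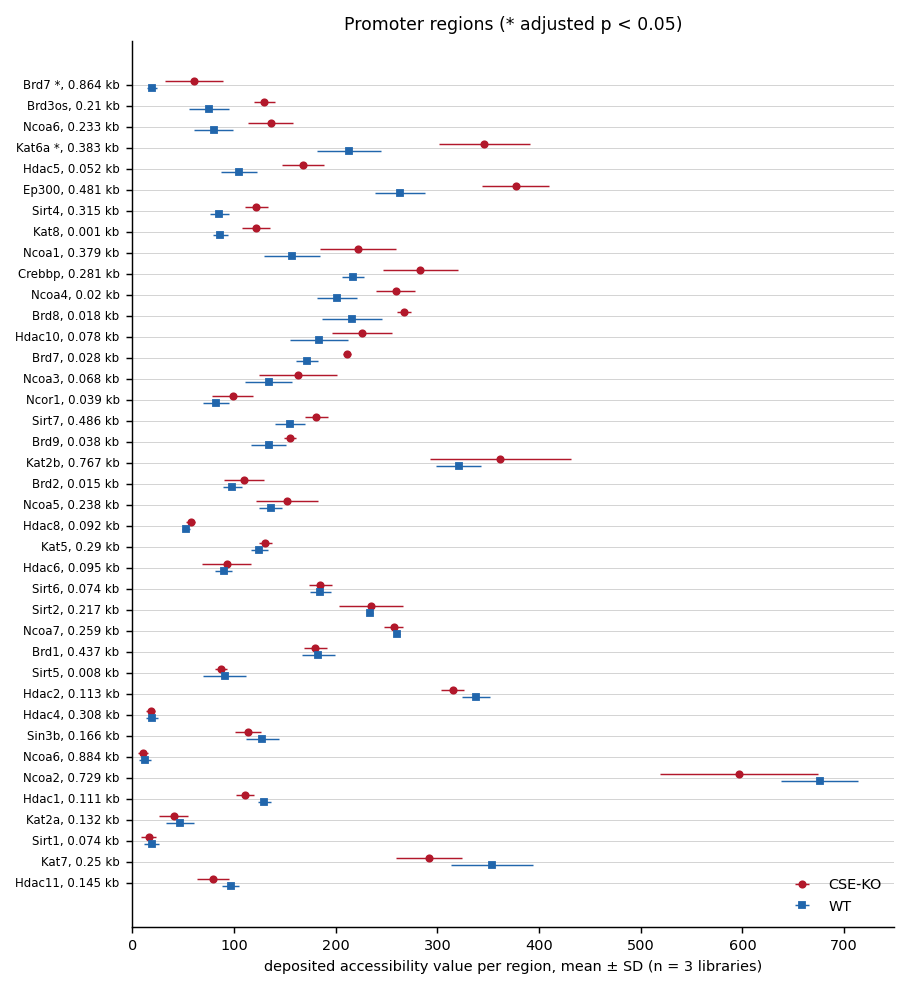
Mean deposited accessibility value ± SD (n = 3 libraries a group) of 39 promoter regions, ordered by log2 change, with CSE-KO as red circles drawn above WT as blue squares; labels give the distance from the start site and a star marks an adjusted p under 0.05. Stars stand at Brd7 (60.7 in CSE-KO, 19.3 in WT) and Kat6a (346 in CSE-KO, 213 in WT) alone.

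Distal and promoter regions of the same gene were then compared. For each gene with both kinds, the mean log2(value + 1) of its distal regions minus that of its promoter regions was tested between groups with limma, adjusted over 7507 genes. Of 26 member genes, 4 passed 0.05, where 11.7% of all genes did: 3 in the direction of a lower distal level relative to the promoter in CSE-KO (8.31% of all genes) and 1 in the opposite direction (3.37%). The difference was lower in CSE-KO in 18 of 26 members (69.2%) and in 61.6% of all genes, with medians of -0.16 and -0.17.

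Ncoa6 had differences of -0.14, -0.38 and 0.08 in CSE-KO against 1.96, 2.51 and 2.50 in WT (change -2.48 ± 0.24 SE, adjusted p = 0.00466). Its promoter mean takes in a weak region of 186 bp (16, 8 and 8 in CSE-KO against 19, 10 and 8 in WT) beside the main one; against the main region alone (114, 136 and 159 in CSE-KO, 82, 60 and 98 in WT) the distal value was lower in CSE-KO (39, 26 and 39) and higher in WT (158, 147 and 168). Brd7 had 0.10, -0.61 and -0.53 in CSE-KO against 0.91, 1.49 and 0.77 in WT (-1.40 ± 0.29 SE, adjusted p = 0.0227); its promoter mean takes in the called region at 0.864 kb. Hdac5 had -0.82, -1.17 and -0.72 in CSE-KO against 0.17, -0.15 and 0.35 in WT (-1.03 ± 0.23 SE, adjusted p = 0.0301). In these 3 genes the distal mean fell relative to the promoter mean, although no distal region of Brd7 or Hdac5 was called by itself. Kat7 had -2.77, -3.08 and -3.00 in CSE-KO against -3.87, -4.00 and -3.53 in WT, the reverse direction (0.85 ± 0.22 SE, adjusted p = 0.0437). Hdac4 (-0.56 ± 0.24 SE, adjusted p = 0.162) did not pass, and Bcor and Hdac7 have no promoter region and could not enter. Without 1 library Ncoa6 kept its call each time; Brd7 lost it without CSE-KO replicate 2 or 3 or each WT library in turn (adjusted p 0.0508 to 0.0912), Hdac5 without CSE-KO replicate 2 or each WT library in turn (0.062 to 0.107), and Kat7 whichever of the 6 was left out (0.0603 to 0.155).

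**Figure D5:**
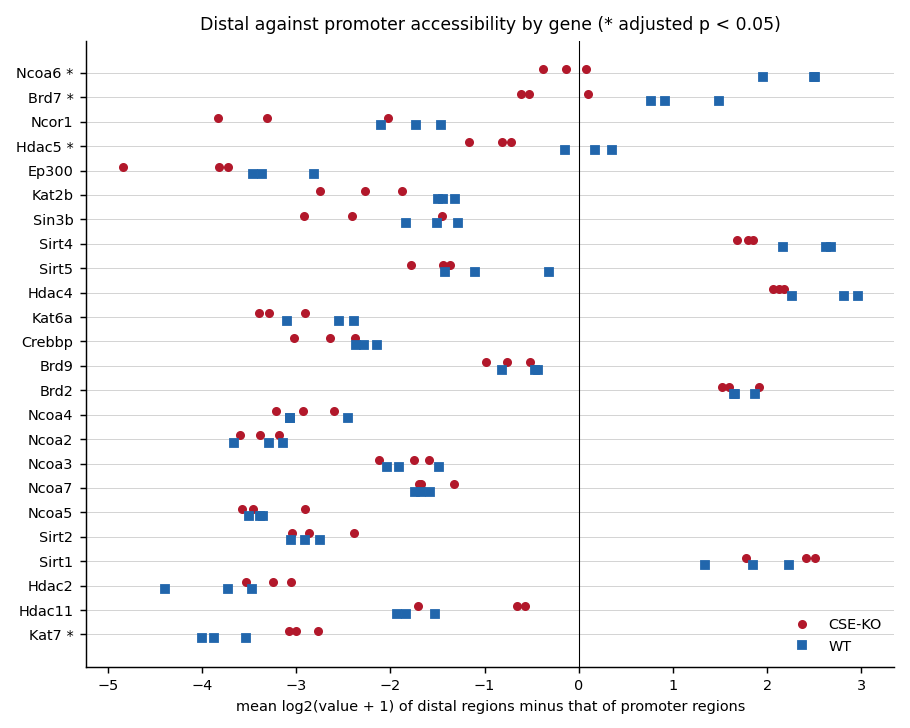
Mean log2(value + 1) of a gene's distal regions minus that of its promoter regions, on the x axis, in each library of 24 genes that have both, with CSE-KO as red circles above WT as blue squares; genes run from the lowest change to the highest and a star marks an adjusted p under 0.05. CSE-KO lies left of WT in Ncoa6, Brd7 and Hdac5 and right of it in Kat7.

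Called distal regions of the members were found inside and outside the genes. For comparison, 8.43% of all distal regions were higher and 11.5% lower, with a median log2 change of -0.06. Of the 119, 81 lie inside the RefSeq span of their own gene, with 5 higher and 16 lower calls and a median log2 change of -0.36; 33 lie in no gene's span, with 2 higher and 5 lower and a median of -0.10; and 5 lie inside another gene, with 0 higher and 1 lower. The spans carry no exons, so exon and intron were not told apart. In 8 of the 119 a RefSeq start of the gene itself lies in the region: in Brd2, Brd3, Hdac4, Hdac7 (2 regions), Sin3a, Ncoa4 and Sirt1, of which the Ncoa4 region alone was called.

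The other genes of the pathway were taken from 4 lists, and they showed both directions. Together 354 regions of these partners gave 29 higher and 22 lower calls, or 14.4%, against 17.3% of all regions. Beside the counts of each list stand 7.7% higher and 9.6% lower over all regions. The partners of acetyltransferase complexes had 9 higher and 2 lower among 118. Tada3, an adaptor of SAGA, had 57, 52 and 74 in CSE-KO against 5, 6 and 10 in WT at a region 13.2 kb away (log2 change 2.99 ± 0.27 SE, adjusted p = 0.00275). Epc2, of the Kat5 complex, had 147, 175 and 179 in CSE-KO against 59, 71 and 67 in WT (1.33 ± 0.17 SE, adjusted p = 0.0056), and Usp22, the deubiquitinase of SAGA, 59, 54 and 51 against 143, 127 and 135 (-1.29 ± 0.16 SE, adjusted p = 0.00488). The regions given to Tada3 and Epc2 (44.3 kb from the start) rose, and that given to Usp22 (55.0 kb) fell. For each partner gene the region with its smallest p is shown.

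Deacetylase partners had 6 higher and 11 lower calls among 98 regions. Mef2a, a target of class IIa deacetylases, had 38, 52 and 36 in CSE-KO against 113, 129 and 98 in WT (log2 change -1.42 ± 0.21 SE, adjusted p = 0.00767). Its relative Mef2d had 36, 32 and 28 in CSE-KO against 13, 17 and 14 in WT (1.08 ± 0.18 SE, adjusted p = 0.0115), and the Sin3 subunit Arid4a 46, 52 and 56 against 22, 23 and 24 (1.12 ± 0.16 SE, adjusted p = 0.00728). The regions given to Mef2a, Mef2d and Arid4a lie 52.3, 49.9 and 57.4 kb from the starts. The 2 Mef2 regions moved in opposite directions.

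Other acetyl-lysine readers had 7 higher and 6 lower calls among 67 regions. Mllt3, a YEATS reader, had 26, 31 and 33 in CSE-KO against 80, 86 and 73 in WT (log2 change -1.38 ± 0.17 SE, adjusted p = 0.00519). Bptf, a bromodomain subunit of NURF, had 57, 52 and 44 in CSE-KO against 25, 17 and 20 in WT (1.27 ± 0.20 SE, adjusted p = 0.00954), and Dpf1, of BAF complexes, 75, 84 and 90 against 47, 44 and 46 (0.84 ± 0.16 SE, adjusted p = 0.0152). These regions of Mllt3, Bptf and Dpf1 lie 99.5, 7.71 and 88.2 kb from the starts. Genes of acetyl-CoA supply had 7 higher and 3 lower among 71. Acat1, a mitochondrial thiolase, had 101, 69 and 74 in CSE-KO against 34, 22 and 21 in WT (1.64 ± 0.25 SE, adjusted p = 0.0085). Cpt2, which hands fatty acids to mitochondrial oxidation, had 21, 26 and 34 in CSE-KO against 12, 11 and 12 in WT (1.12 ± 0.21 SE, adjusted p = 0.0147), and Pdk3, an inhibitor of pyruvate dehydrogenase, 34, 41 and 44 against 11, 19 and 18 (1.29 ± 0.24 SE, adjusted p = 0.0154). The regions given to Acat1, Cpt2 and Pdk3 lie 6.81, 38.5 and 75.1 kb from the starts, and all 3 rose.

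The distal regions of the endothelial marker genes had 19 lower and 1 higher call among 73, where all distal regions gave 11.5% and 8.43%. Their median log2 change was -0.52, beside -0.54 at the corepressor scaffolds and -0.44 at the class IIa deacetylases. Their part in the results for the acetylation genes was not tested.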

How the data were processed

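Per the labels, libraries were made from lung endothelial cells with Tn5 transposase and sequenced as paired ends. The authors' tools were STAR 2.7.3a, DESeq2 1.26.0, Picard 3.1.1 and Trimmomatic 0.39, with mm10 as the build, per the submitters' processing notes. The sources used here do not give the role of each, the peak caller, any Tn5 shift of read ends or the gene annotation. The deposited values are a score: whole numbers per region in 6 columns that behave like read counts divided by a size factor and rounded, since the CSE-KO columns skip 35 to 39 of the whole numbers up to 100. A count model, planned for raw counts, was therefore not run.

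From these values, limma 3.58.1 in R 4.3.3 (trend and robust off) tested log2(value + 1), CSE-KO minus WT, in 58129 regions with a mean of at least 5, with Benjamini-Hochberg adjustment over all of them at 0.05. Fold changes on this scale understate those of weak regions. The distal-minus-promoter difference was tested the same way over 7507 genes. Scripts were tested on simulated data. Nothing in the labels says that the 3 libraries of a group came from separate animals, so p-values measure the spread between these libraries only. No 2 libraries of a group were copies: at most 3.68% of their values were identical.

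Members, role classes and lists were chosen with earlier results of these data known. Values per library are given for up to 30 called regions by smallest adjusted p, for the promoters of up to 3 members a class by mean value, for genes with a called distal-minus-promoter difference, for 3 genes a partner list by smallest p, and for Cth; other values named were chosen after they were seen. Alternatives changed the pseudocount, the filter, the scaling, limma's options, the replicate block, the libraries and the assignment. Sequences are from RefSeq (GRCm38.p6): 35 of 43 members matched a window, and 5 windows over 1000 bp from the deposited start were left out. Sequences of distal regions are not used here. Some members that this rule takes stay in the counts but are not reported here by name.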

Additional observations from a re-analysis of the deposited data

How the results depend on the processing

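The number of called acetylation regions (31, with 9 higher and 22 lower), of called partner regions (51) and of genes with a called distal-minus-promoter difference (4) stayed within 1.5 times of these values with log2(value + 0.5), log2(value + 5), no filter, median-ratio or TMM factors, and without regions above 10000. A mean of at least 20 gave 14 higher calls. Trend and robust on gave 52 calls, 19 of them higher, and 82 partner calls; array quality weights gave 4 higher calls. All 31 regions kept their direction in each of these settings that tested them, in the block and without each library. Leaving out 1 library in turn gave 10 to 25 calls, 2 to 4 higher and 8 to 21 lower, 14 to 49 partner calls and 1 to 5 genes by distal-minus-promoter difference, the low ends without a WT library for the regions; such fits have fewer samples. The replicate number as a block gave 15 calls, 2 higher and 13 lower, 24 partner calls and 1 gene (Ncoa6). Libraries of equal number showed no shared deviation: deviations from the group means correlated at -0.006, -0.011 and 0.01 for equal numbers, within the -0.011 to 0.014 of all pairs. No library correlated by more than 0.014 with any of the other group. Such correlations cannot tell whether libraries of equal number were prepared together. The table's own symbols alone left 56 member regions, with 3 calls, 2 higher and 1 lower, 6 partner calls and 0 genes. Most of the 56 are promoters (41), where calls are fewer. The 15 distal ones held 1 call (6.67%), against 28 of the 104 given to the nearest start (26.9%). Those 15 lie 1.25 to 5.38 kb from the start, and the 104 lie 5.34 to 92.1 kb away. Shares over all distal regions assigned in each way are not given here. The parts of distance and of the assignment rule in this difference were not tested. Nearest starts within 50 kb gave 33 partner calls. Among uncalled promoters the sign turned in some fits: Sirt2 and Sirt6 were each 0.01 without regions above 10000, and leaving out a library gave -0.10 to 0.09 in Sirt2, -0.04 to 0.05 in Sirt6, -0.29 to 0.10 in Hdac4, -0.04 to 0.01 in Ncoa7, -0.09 to 0.03 in Brd1, -0.18 to 0.20 in Hdac6 and -0.01 to 0.25 in Ncoa5. The 3 further alternatives were chosen after seeing the data: promoters and regions inside the gene's own span gave 23 calls (7 higher, 16 lower), leaving out Brd3os gave 31, and counting regions at a RefSeq start as promoter gave 4 genes. The cause of these changes was not tested. The CSE-KO values rest on about 3330000 to 3620000 reads within the regions in each library, which limits what can be seen at weak regions.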
